A study of Mus musculus with 12 samples.

Results

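Adding cediranib to trametinib was examined by comparing 3 SVR tumors from mice given both drugs with 3 SVR tumors from mice given trametinib alone, out of 12 sequenced tumors. Of 54232 genes in the count table, the 12897 that passed a filter on low counts were compared. In the combination treated tumors, transcripts induced by ERK, led by Dusp6 and Etv5, lay above their levels with trametinib alone but below those of vehicle treated tumors. The inflammatory genes Il1b and Ccr1, the survival gene Bcl2 and the WNT amplifier Rspo3 were also higher. Among the lower genes were the chemokine gene Cxcl12, the retinoic acid carrier gene Crabp2 and the matrix gene Ogn. Epidermal transcripts were far higher in all 3 combination treated tumors, and the genes described singly lie mainly outside the epidermal and muscle lists.

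SVR is an angiosarcoma line of mouse endothelial cells transformed with SV40 large T antigen and oncogenic H-ras, labelled C57BL/6. It was grown under the skin of athymic nude mice, which lack a thymus, so mature T cells are scarce in this host. All mice were dosed daily by gavage in the same vehicle. The trametinib group received 1 mg/kg trametinib, the combination group 1 mg/kg trametinib with 3 mg/kg cediranib, the cediranib group 3 mg/kg cediranib and the vehicle group no drug. The labels number the tumors within a group and do not say from how many animals they came, so p-values measure the spread between these tumors. The sources used here do not say which of the study's treatment experiments gave the tumors, and time on treatment could therefore differ between groups. Whole tumor RNA was captured with exome probes, and tumor cells and host cells are both of mouse origin. The paper gives relatively frequent RNA degradation in the tumors as the reason for this method, and its part in the values was not tested. In such bulk samples, fewer cells of a type and less RNA per cell cannot be told apart.

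Trametinib blocks MEK, the kinase that activates ERK, and oncogenic RAS feeds this cascade from above. Active ERK switches on genes that restrain the same cascade, such as the DUSP phosphatases, the Sprouty and SPRED proteins and the ETS factors Etv4 and Etv5, so their transcripts serve as a readout of ERK activity. Cediranib inhibits the VEGF receptors and the related receptor kinases KIT and the PDGF receptors, which signal in endothelial cells, mast cells and the stroma around vessels.

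Endothelial markers were present but uneven. In the 6 tumors compared, Eng (endoglin) ranged from 45.8 to 61.5 TMM-normalized counts per 1000000 counts (CPM), Tie1 from 14.8 to 60.9 CPM and Cdh5 (VE-cadherin) from 6.90 to 24.4 CPM, whereas Pecam1 did not exceed 1.18 CPM and Emcn did not exceed 0.186 CPM. The T cell marker Cd3g was at 0 counts in every library. Another T cell marker, Cd3e, was at 0.466 CPM in trametinib replicate 2 and 1.36 CPM in combination replicate 2. It was at 0 CPM in the remaining libraries of the 6 compared. Libraries held 9478865 to 11666094 counts, at which 3 counts, the limit that a count of 0 allows, correspond to 0.251 to 0.349 CPM (counting error only).

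In combination treated tumors compared to trametinib treated tumors, 69 genes (0.535% of those tested) were higher and 18 (0.14%) were lower, at a false discovery rate (FDR) below 0.05, from the quasi-likelihood test of edgeR with Benjamini-Hochberg correction, and a log2 fold change of 1.5 or more in size. Genes meeting this rule are referred to as called. Of the 69 higher genes, 21 were on a list of epidermal genes, and of the 18 lower genes 1 was on a muscle list, Cavin4, which encodes a caveolar protein of muscle. Outside the lists of epidermis, hair, sebaceous gland, muscle and fat, 48 genes (0.38%) were higher and 17 (0.134%) were lower. Without the requirement on fold change, 93 genes (0.721%) passed higher and 32 (0.248%) lower. Of all genes tested, 12.4% had every combination value above every trametinib value and 11.8% had every combination value below. The calls depended on single libraries. Leaving out combination replicate 2 left 0 called genes, with a smallest FDR of 0.0646 and 2051 genes at an unadjusted p under 0.05, and leaving out trametinib replicate 2 left 3, Celsr2, Cttnbp2 (named after its values were seen) and Dusp6. Leaving out trametinib replicate 1 or 3 left 16 or 6 genes, and leaving out combination replicate 1 or 3 left 21 or 10. No gene among the 87 changed direction in any of these 6 fits. The 87 were selected for large folds in these same libraries, so their stable direction is not separate support.

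**Figure D1:**
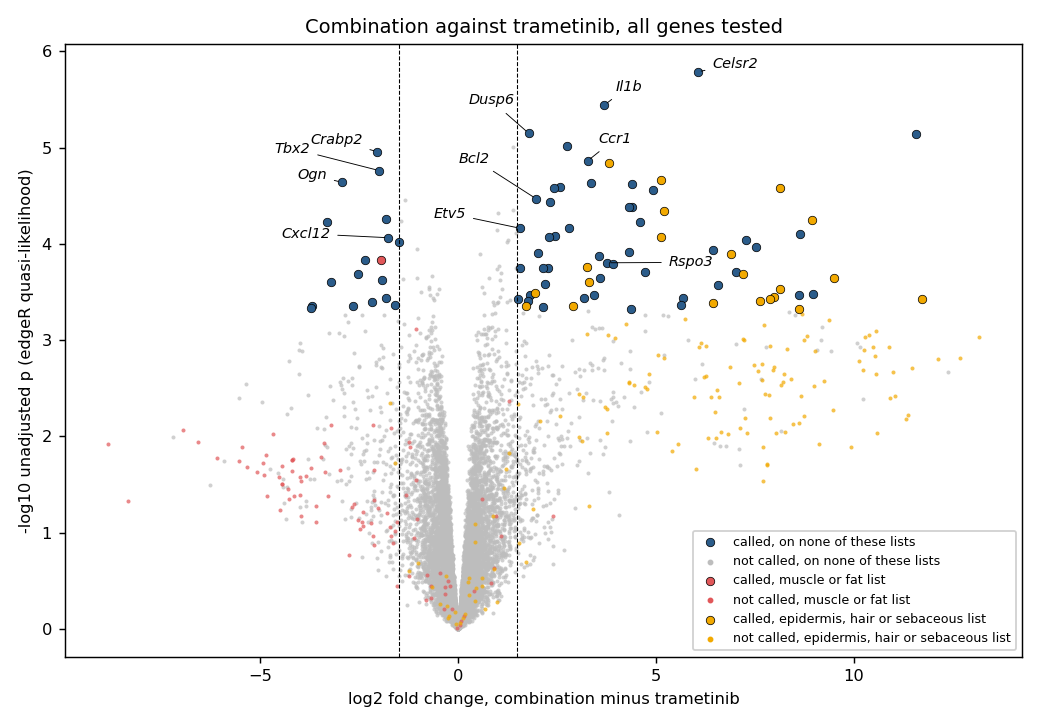
Each point is a gene tested, with the log2 fold change of combination over trametinib on the horizontal axis and the negative log10 of the unadjusted p from edgeR's quasi-likelihood test on the vertical axis. Large outlined points are the 87 called genes, yellow for lists of epidermis, hair and sebaceous gland, red for muscle and fat and blue for the rest, and dashed lines mark a log2 fold change of 1.5 in either direction. Positions of the 10 called genes at 0 counts and of the 15 with 1 to 3 counts over the trametinib libraries depend on the fitted prior and are not measured folds.

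The epidermis list had 124 of 128 tested members with a log2 fold change above 0, and its summed level ran from 242 to 374 CPM with trametinib and from 5830 to 8550 CPM with the combination. The basal keratin Krt14 ran from 0.335 to 2.09 CPM with trametinib and from 1490 to 2340 CPM with the combination, and Krt1 was at 0 counts in all 3 trametinib libraries. Of the tested members, 44 were at 0 counts in every trametinib library. The epidermis sum was also uneven among the cediranib treated tumors, at 6240 CPM in replicate 1, 325 CPM in replicate 2 and 4570 CPM in replicate 3. Cediranib replicate 2 also differed in other tissues, with a fibroblast sum of 9480 CPM against 5240 and 3420 CPM and a sum of erythroid and platelet genes of 578 CPM against 63.8 and 69.4 CPM. Muscle transcripts were uneven in the opposite group, with list sums of 753, 36400 and 3360 CPM in trametinib replicates 1 to 3 against 382 to 1370 CPM with the combination.

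The ERK output list comprised 36 tested genes, of which 34 had a log2 fold change above 0, compared with 48.8% of all genes tested. Dusp6 and Etv5 were called, and 6 members passed the FDR alone, all of them higher (0.721% of all genes tested passed in that direction). The list median was 0.64 on the log2 scale against -0.01 for all genes tested, and it stayed between 0.51 and 0.78 as single libraries were left out. It was 0.66 with an epidermal score (mean log2 CPM of 91 epidermal genes) as a covariate and 0.44 with a muscle score. The summed level of the list was 1130 to 1530 CPM with trametinib, 1660 to 1950 CPM with the combination and 2630 to 2900 CPM with vehicle.

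The promoters of the 2 called genes of this list are shown because both are regarded as direct outputs of ERK and moved together. Each runs from 250 bases before to 50 bases after a RefSeq transcription start in GRCm38.p6, with Dusp6 at chr10:99262981-99263280 on the plus strand and Etv5 at chr16:22439521-22439820 on the minus strand, read along the gene's strand. Capitals mark GGAA on either strand (TTCC on the strand shown), the core bound by ETS factors.
Dusp6: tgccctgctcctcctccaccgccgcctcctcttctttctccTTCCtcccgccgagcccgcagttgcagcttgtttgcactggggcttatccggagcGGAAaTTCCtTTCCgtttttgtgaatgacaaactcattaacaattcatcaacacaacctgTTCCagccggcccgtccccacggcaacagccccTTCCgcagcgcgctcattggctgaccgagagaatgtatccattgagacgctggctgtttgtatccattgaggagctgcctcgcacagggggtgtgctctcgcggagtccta
Etv5: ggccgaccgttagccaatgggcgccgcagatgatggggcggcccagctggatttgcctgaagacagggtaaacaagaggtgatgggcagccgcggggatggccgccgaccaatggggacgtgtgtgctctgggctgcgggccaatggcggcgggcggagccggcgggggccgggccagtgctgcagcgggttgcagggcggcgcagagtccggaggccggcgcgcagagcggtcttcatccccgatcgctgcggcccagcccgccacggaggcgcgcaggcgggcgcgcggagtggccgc
RefSeq lists 1 start for Dusp6 and 2 for Etv5, of which the one used lies 149 bases from the annotated start of the gene. The Dusp6 window held 6 matches to GGAA and this Etv5 window, which is 74.0% G and C, held 0; a window at the other start could differ. At least 1 match was present in 96.0% of all 32851 RefSeq promoter windows of this length. The AP-1 motif TGANTCA, searched on both strands, had 0 matches in both windows and was present in 7.81% of all windows. These are matches of letters and not measured binding sites.

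Dusp6 (ENSMUSG00000019960, chromosome 10 from 99263231 to 99267488, GRCm38), which encodes a phosphatase that inactivates ERK, had 4.54, 1.98 and 3.60 CPM in trametinib treated tumors and 13.9, 11.3 and 10.2 CPM in combination treated tumors. Vehicle treated tumors had 47.7, 46.4 and 39.0 CPM and cediranib treated tumors 41.4, 43.6 and 43.1 CPM. The groups did not overlap, and every combination value lay between the trametinib and the vehicle values. The log2 fold change over trametinib was 1.79 (standard error, SE, 0.24, FDR 0.0196 by the edgeR quasi-likelihood test, Benjamini-Hochberg adjusted). Mean levels were 7.60% of the vehicle mean with trametinib and 26.7% with the combination. With the epidermal score as a covariate the log2 fold change was 1.82, but 0 genes were called in that fit (smallest FDR 0.138), so Dusp6 was not. That score differed completely between the compared groups, and the part of epidermal content was not tested.

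Etv5 (chromosome 16 from 22381309 to 22439719), an ETS transcription factor, had 7.63, 3.84 and 5.53 CPM with trametinib and 16.1, 21.1 and 14 CPM with the combination. Vehicle treated tumors had 69.4, 76.7 and 72.0 CPM. The groups did not overlap, with a log2 fold change of 1.58 over trametinib (SE 0.27, FDR 0.0269). Its paralog Etv4 had 8.26, 14.7 and 12 CPM with trametinib and 29.8, 36.5 and 25.7 CPM with the combination, again with a gap between the groups and below the 78.7 to 89.3 CPM of vehicle. Etv4 passed the FDR but not the fold (log2 fold change 1.40, SE 0.23, FDR 0.0237). With the epidermal score as a covariate its log2 fold change was 0.78, compared with 2.17 for Etv5.

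Egr1, an immediate early transcription factor, had 3.18, 3.26 and 5.11 CPM with trametinib and 10.2, 7.17 and 10.6 CPM with the combination, against 86.2 to 88.1 CPM with vehicle. Its combination level was 10.7% of vehicle, lower than that of the other members named here. The log2 fold change over trametinib was 1.26 (SE 0.22, FDR 0.028). The remaining members that passed the FDR were Spred3, a SPRED-family inhibitor of RAS signaling (log2 fold change 1.25, FDR 0.0466), and Hmga2, a chromatin protein (1.09, FDR 0.0388). Spred3 went from 1.40 to 1.59 CPM to 2.45 to 4.46 CPM, and Hmga2, which overlaps a gene on the opposite strand, from 61.2 to 104 CPM to 160 to 181 CPM. These and the members that follow were chosen after their values were seen.

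Other feedback genes had positive values that did not pass. Values on the log2 scale were 1.38 for the phosphatase gene Dusp4 (SE 0.50, FDR 0.18), 0.76 for Dusp5 (0.30, FDR 0.221) and 0.97 for the Sprouty gene Spry2 (0.37, FDR 0.195). Dusp4 had 2.91, 0.349 and 2.51 CPM with trametinib and 3.13, 5.17 and 7.24 CPM with the combination, without overlap, although the closest values nearly met. Ccnd1, which encodes cyclin D1, had 16.4 to 22.1 CPM with trametinib and 29.7 to 35.2 CPM with the combination, without overlap (log2 fold change 0.69, SE 0.16, FDR 0.0619). Plk3, a stress-responsive Polo-like kinase gene, had 10.6, 8.38 and 10.1 CPM with trametinib and 19.9, 25.4 and 30.8 CPM with the combination, and passed the FDR but not the fold (log2 fold change 1.38, SE 0.19, FDR 0.0196). Its relative Plk2 went the other way, from 78.8 to 113 CPM to 33.3 to 44.4 CPM (log2 fold change -1.38, SE 0.27, FDR 0.0399). Leaving out trametinib replicate 3 or combination replicate 2 ended the calls of both Dusp6 and Etv5, with FDRs of 0.0663 to 0.077 and of 0.0646 to 0.0851. Etv5 was also lost without trametinib replicate 2 (FDR 0.0798), combination replicate 1 (0.0635) or combination replicate 3 (0.0543).

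**Figure D2:**
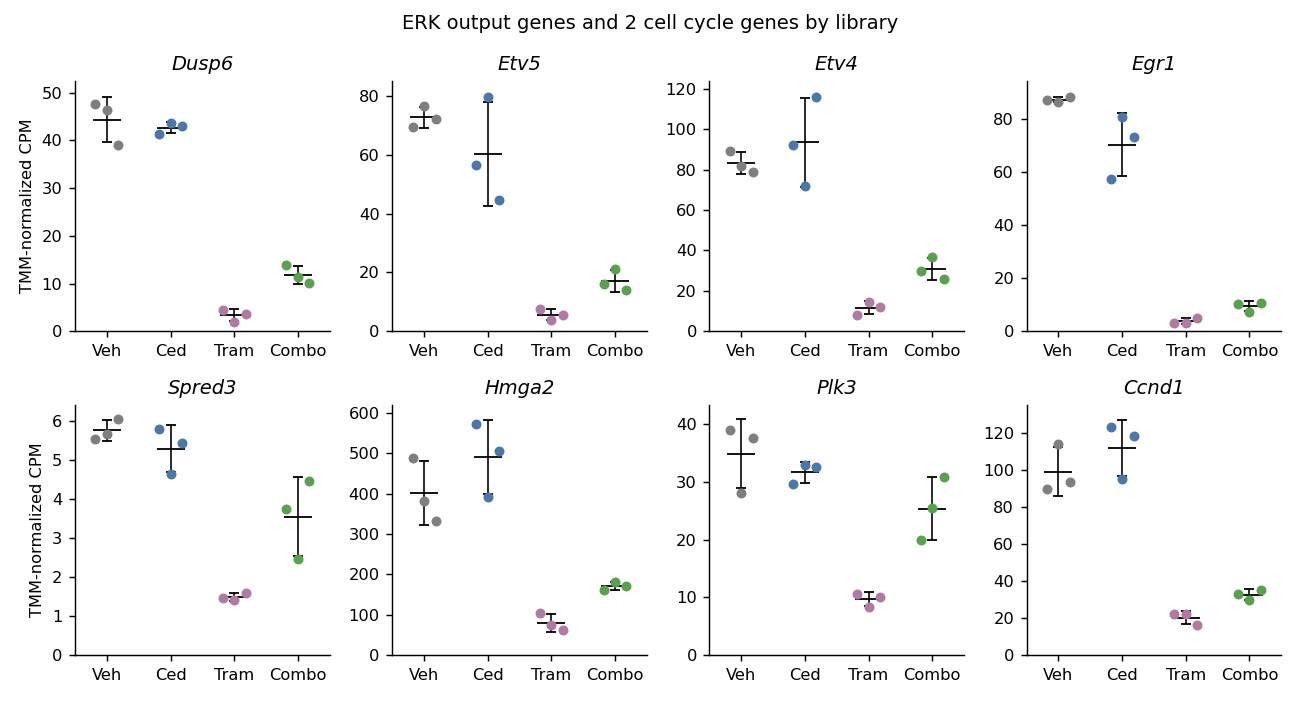
Each panel shows 1 gene, with TMM-normalized CPM on a linear axis from 0 and the groups vehicle (Veh), cediranib (Ced), trametinib (Tram) and combination (Combo) along the horizontal axis. Points are the 3 libraries of a group and bars the mean and SD. In every panel the 3 combination values lie above the 3 trametinib values, for Dusp6 at 10.2 to 13.9 against 1.98 to 4.54 CPM, and their mean lies below that of vehicle.

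The components of the cascade itself were not called. Of 31 tested genes of the RAS, RAF, MEK and ERK cascade 18 were above and 13 below 0, with a median of 0.11, and 5 higher and 1 lower had an unadjusted p under 0.05, as had 9.21% (higher) and 8.69% (lower) of all genes tested. DESeq2, edgeR's likelihood ratio test and limma-voom likewise called 0 of them. The MEK genes had log2 fold changes of -0.14 for Map2k1 (SE 0.20, FDR 0.75) and -0.13 for Map2k2 (0.13, FDR 0.637), and Mapk3, an ERK gene, one of -0.17 (0.14, FDR 0.551). Map2k1 had 186 to 272 CPM with trametinib and 181 to 243 CPM with the combination, which overlap. The sign of the small values for Map2k1, Map2k2 and Mapk3 was not stable. It turned for all 3 with the epidermal score as a covariate (0.19, 0.02 and 0.37), and for Map2k1 the value was 0.00 with library totals alone.

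Of the 19 tested genes for cediranib's targets and their ligands 0 were called by edgeR's quasi-likelihood test, DESeq2 or limma-voom, 1 higher and 4 lower had an unadjusted p under 0.05, and the median was -0.23. Kdr, the main VEGF receptor, had 1.54, 4.07 and 2.85 CPM with trametinib and 2.42, 2.45 and 2.13 CPM with the combination. The groups overlapped, and the log2 fold change of -0.26 (SE 0.58, FDR 0.861) was 0.08 without trametinib replicate 2. The other VEGF receptor genes had log2 fold changes of 0.41 (Flt1, SE 0.35, FDR 0.579) and -1.07 (Flt4, 0.71, FDR 0.461). Pdgfra had -0.45 (SE 0.26, FDR 0.397) and Pdgfrb -1.32 (0.44, FDR 0.152). Of these values 4 turned direction with the epidermal score as a covariate, to 1.65 for Kdr, 1.15 for Flt4, 0.28 for Pdgfra and 0.50 for Pdgfrb. Kit had 2.09, 0.349 and 0.251 CPM with trametinib and 3.33, 4.81 and 4.92 CPM with the combination, without overlap, and a log2 fold change of 2.25 that did not pass (SE 0.92, FDR 0.227). Of 37 tested endothelial genes 14 were above and 23 below 0 and 0 were called by those 3 tools (5 higher and 4 lower at an unadjusted p under 0.05), with list sums of 500 to 651 CPM with trametinib and 546 to 663 CPM with the combination. On a separate list of sprouting endothelium 11 of 16 tested genes were below 0 (51.2% of all genes tested). Called lower were 2 of these, Igfbp3 and Ednrb (0.14% of all genes tested), which are described below.

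Among the 17 lower genes outside the lists of skin, muscle and fat were Cxcl12, a chemokine of stromal and perivascular cells, the retinoid genes Crabp2 and Dhrs3, the transcription factors Tbx2 and Scx, and the matrix genes Ogn, Lrrc17 and Serpinf1. Cxcl12 (ENSMUSG00000061353, chromosome 6 from 117168535 to 117181366) had 145, 137 and 122 CPM with trametinib and 39.5, 28.8 and 51.3 CPM with the combination. The groups were far apart, with a log2 fold change of -1.76 (SE 0.30, FDR 0.0278 by the edgeR quasi-likelihood test, Benjamini-Hochberg adjusted). Vehicle treated tumors had 46.5 to 51.6 CPM, close to the upper end of the combination values, and cediranib treated tumors 24.7, 67.9 and 56.9 CPM.

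Crabp2 (ENSMUSG00000004885, chromosome 3 from 87948666 to 87953376), which encodes a protein that carries retinoic acid to its nuclear receptors, had 48.4, 53.1 and 68.1 CPM with trametinib and 12.8, 10.3 and 18.2 CPM with the combination. Vehicle and cediranib treated tumors had no more than 2.12 and 3.16 CPM, so the combination level lay between trametinib and the groups without it. The log2 fold change was -2.04 (SE 0.28, FDR 0.0196). Dhrs3, which encodes a retinaldehyde reductase that limits retinoic acid synthesis, had 6.99, 10.6 and 13.8 CPM with trametinib and 3.23, 2.63 and 2.97 CPM with the combination, without overlap (log2 fold change -1.83, SE 0.30, FDR 0.0249). Rdh10, which encodes an enzyme that produces retinaldehyde, moved the opposite way, from 30.2 to 37.5 CPM to 55.6 to 76.1 CPM, and passed the FDR but not the fold (log2 fold change 0.88, SE 0.18, FDR 0.0466). The 23 tested retinoid genes were otherwise divided, 12 above and 11 below 0.

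Tbx2, a T-box factor of developing mesenchyme, had 17.7, 31.8 and 15.7 CPM with trametinib and 4.75, 4.45 and 7.15 CPM with the combination (log2 fold change -1.99, SE 0.29, FDR 0.0196). Scx, the tendon factor scleraxis, had 35.8, 105 and 59.6 CPM with trametinib and 13.4, 17.0 and 13.7 CPM with the combination (-2.18, SE 0.45, FDR 0.0466). In both genes the groups were separate, and trametinib replicate 2 was the highest of the 6 libraries. Ogn, a small leucine-rich proteoglycan, had 9.62, 12.6 and 4.52 CPM with trametinib and 1.62, 0.999 and 0.835 CPM with the combination (-2.94, SE 0.44, FDR 0.0196). Lrrc17 had a log2 fold change of -3.30 (SE 0.55, FDR 0.0249) and Serpinf1, which encodes the antiangiogenic protein PEDF, one of -2.66 (0.56, FDR 0.0475). Serpinf1 was at 59.4, 115 and 40.0 CPM with trametinib and 9.39, 7.26 and 17.2 CPM with the combination, which was also below the 35.0 to 93.1 CPM of vehicle.

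Of 35 tested fibroblast genes 34 were below 0, compared with 51.2% of all genes tested, and 2 were called, Ogn and Serpinf1 (0.14% of all genes tested were called lower). The list median was -1.11 and its summed level fell from 11700 to 43200 CPM to 5370 to 8110 CPM, with the highest sum in trametinib replicate 2. Asporin (Aspn, FDR 0.0517) and Col1a2 (FDR 0.0813) were among the members that did not pass. Col1a1, chosen after its values were seen, had 13100, 31100 and 5790 CPM with trametinib and 4230, 1390 and 3940 CPM with the combination, without overlap (log2 fold change -2.39, SE 0.84, FDR 0.171). Collagens and their crosslinking enzymes were below 0 in 38 of 47 genes (median -0.43) and pericyte and smooth muscle genes in 11 of 14 (median -1.09). The quasi-likelihood test and limma-voom called 0 genes of either list, while DESeq2 called 2 higher and 5 lower collagen genes and 2 lower pericyte genes. Over all 12897 genes tested DESeq2 called 347. At an unadjusted p under 0.05, 17 collagen and 6 pericyte genes were lower, as were 8.69% of all genes tested. The pericyte channel subunit Abcc9 was the nearest to passing, at 1.36, 4.77 and 1.51 CPM against 0.202, 0.454 and 0.0928 CPM (log2 fold change -3.26, SE 0.74, FDR 0.0619).

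Epidermal content differed between the same groups as these lower genes did. With the epidermal score as a covariate the median of the fibroblast list was 0.02, while the values for Crabp2 (-2.03), Tbx2 (-1.63), Cxcl12 (-0.88) and Serpinf1 (-0.82) remained below 0. The score separated the compared groups completely, at -1.21 to -1.0 in trametinib and 2.20 to 2.88 in combination libraries, so its part in the fall and that of treatment cannot be told apart. Without trametinib replicate 2, the library richest in muscle and fibroblast transcripts, 0 of the 8 genes from Cxcl12 to Serpinf1 were called (FDR 0.0551 to 0.139), and without combination replicate 2 also 0 (0.0801 to 0.146). Without trametinib replicate 1, trametinib replicate 3, combination replicate 1 or combination replicate 3, the number called was 4, 2, 1 and 2, with FDRs up to 0.0996, 0.11, 0.131 and 0.132. The median of the fibroblast list was -0.93 without trametinib replicate 2.

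The IGF binding protein genes Igfbp2 and Igfbp3 and the receptor gene Ednrb were lower. Igfbp3, which binds IGFs and is made by sprouting endothelium, had 13.7, 15.0 and 11.3 CPM with trametinib and 4.85, 2.72 and 3.06 CPM with the combination (log2 fold change -1.91, SE 0.37, FDR 0.0402). Igfbp2 had 7.63, 7.91 and 1.09 CPM with trametinib and 0.404, 0.182 and 0.650 CPM with the combination (-3.71, SE 0.78, FDR 0.0489). Both groups were separate for each gene, although trametinib replicate 3 of Igfbp2 lay near the combination. Of 18 tested insulin and IGF genes 13 were below 0 (median -0.96), compared with 51.2% of all genes tested, and these 2 were called lower, as were 0.14% of all genes. DESeq2, which called 347 of all genes tested, called 5 of the list lower and 1 higher, and limma-voom 0.

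Ednrb, the endothelin receptor B gene, had 11.9, 12.2 and 11.6 CPM with trametinib and 3.64, 0.999 and 1.58 CPM with the combination (log2 fold change -2.53, SE 0.48, FDR 0.0388). The groups were far apart. Netrin 4 (Ntn4), a secreted guidance protein of basement membranes, passed the FDR but not the fold (log2 fold change -1.34, SE 0.21, FDR 0.0226). Of Igfbp2, Igfbp3 and Ednrb, 0 were called without trametinib replicate 1 (FDR up to 0.128), trametinib replicate 2 (0.139), combination replicate 2 (0.148) or combination replicate 3 (0.112). Without trametinib replicate 3 the call of Igfbp2 alone held, and without combination replicate 1 that of Ednrb alone.

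**Figure D3:**
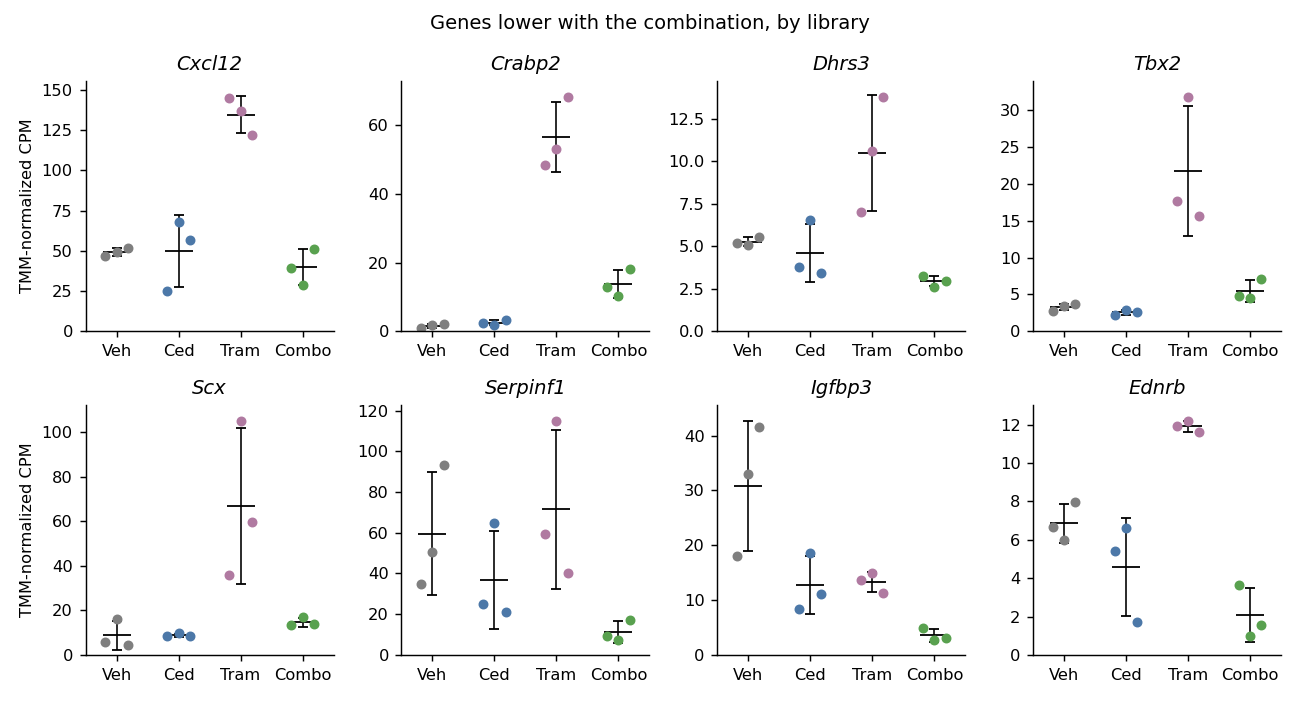
Each panel shows 1 gene called lower with the combination than with trametinib, in TMM-normalized CPM on linear axes from 0, for vehicle (Veh), cediranib (Ced), trametinib (Tram) and combination (Combo). Points are the 3 libraries of a group and bars the mean and SD. The combination values of Cxcl12, 28.8 to 51.3 CPM, sit near those of vehicle, while those of Crabp2 and Tbx2 stay above vehicle and those of Igfbp3 lie below it.

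Among the genes called higher were Il1b and Ccr1, while the lists of interleukins (14 of 22 above 0, 1 called higher) and chemokines (5 of 11 above 0, 1 called higher and 1 lower) were divided. Of all genes tested 48.8% were above 0, 0.535% were called higher and 0.14% lower. Il1b (ENSMUSG00000027398, chromosome 2 from 129364570 to 129371139), which encodes the cytokine interleukin 1 beta, had 0.545, 0.233 and 0.251 CPM with trametinib and 3.23, 6.54 and 4.18 CPM with the combination. Vehicle treated tumors had 1.72 to 3.24 CPM and cediranib treated tumors 2.20, 2.08 and 3.44 CPM, so the trametinib group was the one apart. The log2 fold change was 3.70 (SE 0.46, FDR 0.0196 by the edgeR quasi-likelihood test, Benjamini-Hochberg adjusted), from 11 counts over the trametinib libraries and 149 over the combination libraries. Ccr1, a chemokine receptor of myeloid cells, had 0.272, 0.233 and 0.167 CPM with trametinib and 2.32, 3.18 and 1.30 CPM with the combination, without overlap (log2 fold change 3.28, SE 0.47, FDR 0.0196). With the epidermal score as a covariate, which cannot be told apart from treatment here, the values for Il1b and Ccr1 were 2.80 and 3.39.

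Nod2, an intracellular sensor of bacterial cell wall, had 0.817, 1.05 and 1.34 CPM with trametinib and 3.84, 5.36 and 6.87 CPM with the combination (log2 fold change 2.31, SE 0.40, FDR 0.0278). Nfkbiz, which encodes a nuclear regulator of NF-kappaB target genes, had 9.62, 5.82 and 7.70 CPM and 25.6, 27.1 and 29.3 CPM (1.82, SE 0.37, FDR 0.0462). The groups were apart in both. Nlrp3, the inflammasome sensor, was at 0 counts in all 3 trametinib libraries and at 0.808, 0.908 and 1.67 CPM with the combination, which makes it at least 11.9-fold higher when set against 3 counts over the trametinib group (FDR 0.0435). Nod2, Nfkbiz and Nlrp3 were named after their values were seen. Of Il1b, Ccr1, Nod2, Nfkbiz and Nlrp3, 0 were called without trametinib replicate 2 (FDR up to 0.139), trametinib replicate 3 (0.121) or combination replicate 2 (0.111). Il1b and Ccr1 were called without combination replicate 1 or 3, and Il1b without trametinib replicate 1.

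All 8 tested genes of neutrophils and mast cells were above 0 (48.8% of all genes tested) with a median of 2.88. By edgeR's quasi-likelihood test 0 of them were called, although 6 had an unadjusted p under 0.05 (9.21% of all genes tested were higher at that p). The likelihood ratio test of edgeR called 5, DESeq2 3 and limma-voom 0. Over all genes tested these tools called 401, 347 and 16. The summed level of the list was 9.38 to 20.4 CPM with trametinib, 67.4 to 128 CPM with the combination, 25.7 to 47.0 CPM with vehicle and 34.2 to 88.6 CPM with cediranib. Hdc, histidine decarboxylase, had 6.45, 4.89 and 2.93 CPM with trametinib and 30.3, 36.1 and 52.8 CPM with the combination (log2 fold change 3.06, SE 0.78, FDR 0.0773). The mast cell protease gene Cpa3 had 0.999, 0.582 and 0.167 CPM and 4.14, 2.00 and 6.96 CPM (2.89, SE 0.67, FDR 0.0635). The neutrophil genes S100a9 and Cxcr2 did not exceed 2.00 and 3.81 CPM in any of the 6 libraries. Macrophage genes leaned the other way, with 23 of 29 below 0 (51.2% of all genes tested were below 0) and a median of -0.62. Of all genes tested 0.14% were called lower. Of the macrophage genes Cd68, a lysosomal protein of macrophages, was called lower, from 2.91, 5.59 and 5.02 CPM to 1.31, 1.91 and 1.21 CPM (log2 fold change -1.60, SE 0.33, FDR 0.0473), and Csf1r had 72.0 to 126 CPM against 42.0 to 51.8 CPM (log2 fold change -1.06, SE 0.33, FDR 0.125). The direction of Csf1r turned with the epidermal score as a covariate, and that of Hdc with the epidermal and muscle scores together. The part of myeloid cell number in the values of Il1b and Ccr1 was not tested.

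Bcl2 (ENSMUSG00000057329, chromosome 1 from 106538178 to 106714274), which encodes a mitochondrial inhibitor of apoptosis, had 3.27, 1.98 and 1.76 CPM with trametinib and 7.57, 7.08 and 13.1 CPM with the combination. The groups did not overlap, and vehicle treated tumors had 8.77 to 12.6 CPM. It differed by 1.98 on the log2 scale (SE 0.31, FDR 0.0226), and 1.85 with the epidermal score as a covariate. Bcl2 was the only called gene among 32 tested apoptosis genes, 19 of which were above and 13 below 0. Of all genes tested 0.535% were called higher and 48.8% were above 0.

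Rspo3 (ENSMUSG00000019880, chromosome 10 from 29452416 to 29535867), a secreted protein that amplifies WNT signals and is made by endothelial and mesenchymal cells, had 0.635, 1.05 and 0.837 CPM with trametinib and 6.97, 10.7 and 16.7 CPM with the combination. It did not exceed 1.22 CPM in any vehicle or 0.0999 CPM in any cediranib treated tumor, so of the 4 groups it was high only with the combination. Over trametinib it rose by 3.77 on the log2 scale (SE 0.70, FDR 0.0369). The WNT ligand gene Wnt3 was at 0 counts in all 3 trametinib libraries and at 3.43, 2.00 and 1.21 CPM with the combination, at least 22.9-fold higher against 3 counts over the trametinib group (FDR 0.031). Of 51 tested WNT pathway genes these 2 were called, both higher (0.535% of all genes tested were called higher). On this list 23 were above and 28 below 0, and 48.8% of all genes tested were above 0.

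Of 54 tested axon guidance genes 30 were above and 24 below 0. Called higher were 3 of them, all of the ephrin system of contact signals (0.535% of all genes tested were called higher), and Ntn4 passed the FDR alone, lower. Ephb6, a receptor without kinase activity, had 0.182, 0.698 and 0 CPM with trametinib and 3.94, 8.90 and 7.24 CPM with the combination (log2 fold change 4.60, SE 0.76, FDR 0.0249). The ligand gene Efna3 had 1.09, 2.33 and 0.921 CPM and 6.46, 5.72 and 6.59 CPM (2.14, SE 0.40, FDR 0.037), and the receptor gene Epha1 1.36, 2.09 and 1.09 CPM and 8.28, 8.72 and 13.3 CPM (2.75, SE 0.38, FDR 0.0196). All 3 were separate between groups. Some other ephrin receptor genes were lower without being called, such as Ephb2 (log2 fold change -2.77, SE 0.61, FDR 0.0568) and Epha3 (-2.31, SE 1.04, FDR 0.272). Efna3 and Epha1 each overlap a gene on the opposite strand, and Epha1 was also uneven among the cediranib treated tumors, at 5.99, 2.65 and 6.70 CPM. Of Bcl2, Rspo3, Wnt3, Ephb6, Efna3 and Epha1, 0 were called without trametinib replicate 2 (FDR up to 0.111), trametinib replicate 3 (0.111), combination replicate 2 (0.0933) or combination replicate 3 (0.105). Bcl2 was called without trametinib replicate 1, and Bcl2, Epha1 and Ephb6 without combination replicate 1.

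Further genes called higher included Sorl1, a sorting receptor, with 4.54, 3.38 and 1.84 CPM with trametinib and 12.3, 21.9 and 18.2 CPM with the combination (log2 fold change 2.43, SE 0.37, FDR 0.0196). Pdzd2, a PDZ domain protein, had 1.63, 2.44 and 1.17 CPM and 6.56, 12.1 and 12.5 CPM (2.58, SE 0.39, FDR 0.0196). Cacnb2, a calcium channel subunit, had 1.09, 1.40 and 1.51 CPM and 7.98, 7.54 and 4.64 CPM (2.33, SE 0.37, FDR 0.0226). The groups were separate in each, and vehicle treated tumors were at or below 2.02 CPM for Pdzd2 and 0.852 CPM for Cacnb2 but at 4.87 to 11 CPM for Sorl1. Sorl1 and Cacnb2 overlap a gene on the opposite strand. None of these 3 was called without trametinib replicate 2, trametinib replicate 3 or combination replicate 2 (FDR up to 0.0715, 0.112 and 0.0851).

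**Figure D4:**
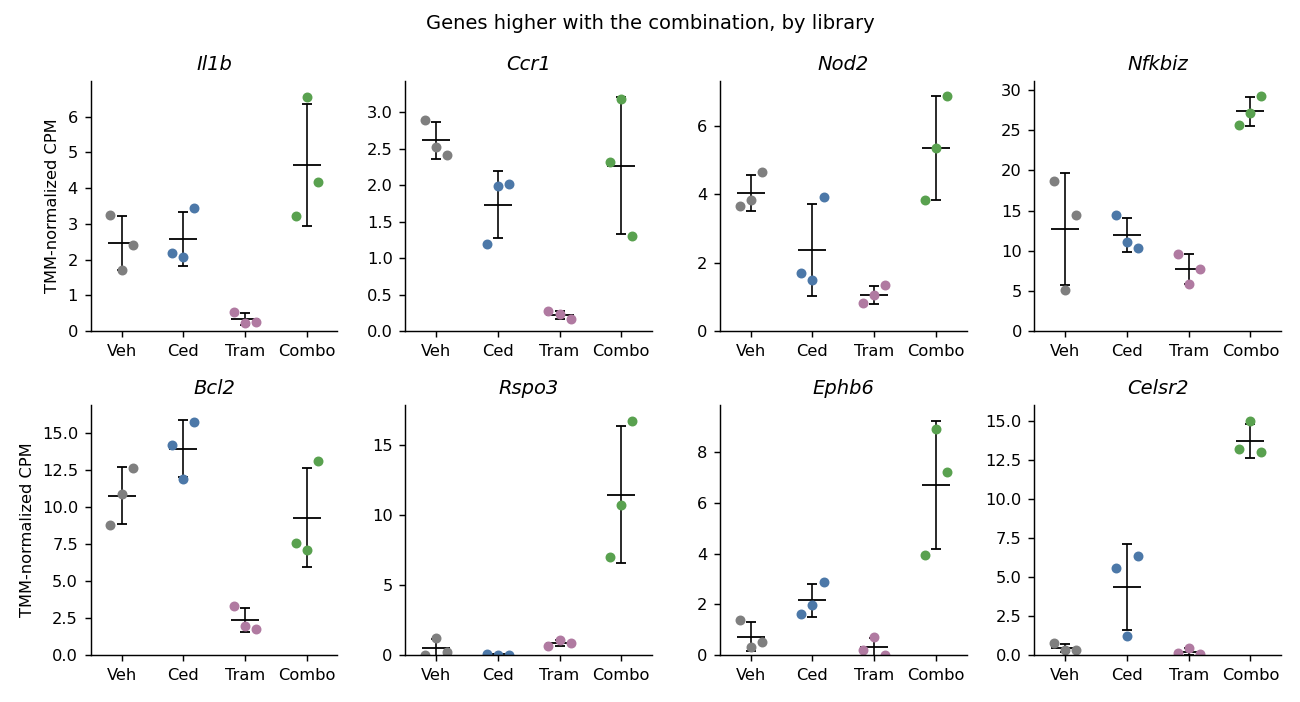
Each panel shows 1 gene called higher with the combination than with trametinib, in TMM-normalized CPM on linear axes from 0, for vehicle (Veh), cediranib (Ced), trametinib (Tram) and combination (Combo). Points are the 3 libraries of a group and bars the mean and SD. Il1b, Ccr1, Nod2 and Bcl2 are low with trametinib alone, Rspo3 at 6.97 to 16.7 CPM is high with the combination alone, and Celsr2 is low in cediranib replicate 2, the middle point of its group.

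Some called genes outside the epidermis list shared its pattern among the cediranib treated tumors. There only replicate 2 was poor in epidermal transcripts, and 90 of 128 epidermis genes had a value in replicate 2 below 0.5 times both other replicates, as had 4.56% of all genes tested. The same held for 23 of the 48 unlisted genes called higher and also for 32 of 80 muscle genes, so the pattern was not particular to epidermis. The criterion was chosen after the values were seen. Celsr2, a seven-pass cadherin of planar cell polarity, had the smallest p of the comparison. It had 0.0908, 0.466 and 0.0837 CPM with trametinib and 13.2, 15.0 and 13 CPM with the combination (log2 fold change 6.06, SE 0.70, FDR 0.0196), and 5.6, 1.23 and 6.32 CPM in cediranib replicates 1 to 3. Its call held in 5 of the 6 fits with 1 library left out and was lost without combination replicate 2 (FDR 0.0646).

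Ckmt1, a mitochondrial creatine kinase, had 115, 158 and 128 CPM with the combination against 1 count over the 3 trametinib libraries, and 89.0, 6.24 and 56.9 CPM in cediranib replicates 1 to 3. The FGF receptor gene Fgfr2, which overlaps Ctbp2 on the same strand, had 5.27, 6.17 and 2.76 CPM with trametinib and 23.8, 20.2 and 33.2 CPM with the combination (log2 fold change 2.45, SE 0.42, FDR 0.0278). The transcription factor gene Bcl11a had 0.908, 0.349 and 0.335 CPM and 6.26, 4.09 and 6.50 CPM (3.36, SE 0.51, FDR 0.0196). With the epidermal score as a covariate the log2 fold change was 3.35 for Celsr2, 2.30 for Bcl11a and 0.74 for Fgfr2. The part of epidermal content in these 23 genes was not tested.

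Genes of mitosis, DNA replication and oxidative phosphorylation were not called, although those of mitosis leaned lower. Of 75 tested mitosis genes 62 were below 0 (51.2% of all genes tested) with a median of -0.23, and 0 were called by edgeR, DESeq2 or limma-voom, with 15 lower at an unadjusted p under 0.05 (8.69% of all genes tested). In 22 of them every combination value lay below every trametinib value, as in 11.8% of all genes tested. Ckap2l had the smallest p of the list (log2 fold change -1.36, SE 0.30, FDR 0.0583). Cdc20, the activator of the anaphase-promoting complex, had 54.7 to 62.5 CPM with trametinib and 32.5 to 42.7 CPM with the combination (log2 fold change -0.58, SE 0.13, FDR 0.0631), and Cdk1 31.7 to 37.8 CPM and 21.6 to 26.3 CPM (-0.52, SE 0.14, FDR 0.0852). The groups were separate in both. The median of the mitosis list was -0.10 when libraries were scaled by their totals, a scaling that moved the median of all genes from -0.01 to 0.12. DNA replication and E2F genes had a median of -0.06, which turned to 0.07 with that scaling, and oxidative phosphorylation genes one of -0.26 with 51 of 61 below 0.

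**Figure D5:**
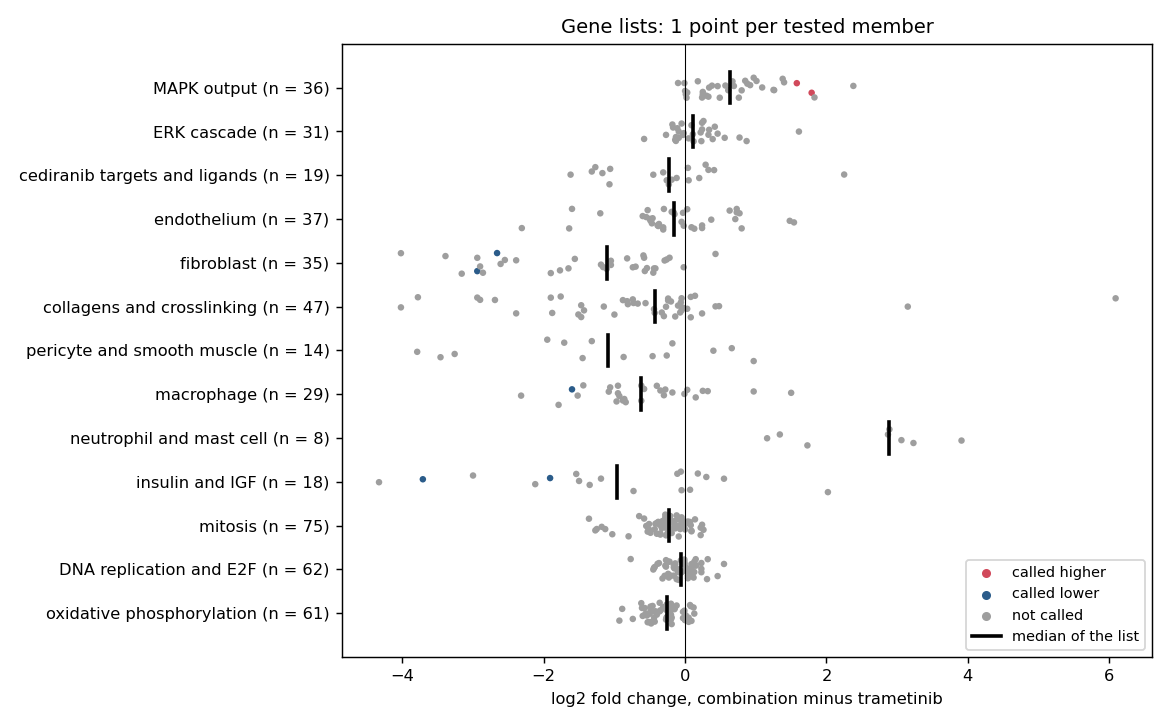
Each point is a tested member of a gene list, placed by its log2 fold change of combination over trametinib, with the number of tested members beside the list's name. Red points were called higher, blue points called lower and gray points not called, and the black bar is the median of the list. The bar lies at 0.64 for ERK output and at -1.11 for fibroblast genes, with the mitosis list narrow around -0.23.

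Whether cediranib acted differently in the presence of trametinib was tested as an interaction, the effect of cediranib with trametinib minus its effect without. By edgeR's quasi-likelihood test 0 genes were called, the smallest FDR was 0.185, and 909 genes (7.05%) had an unadjusted p under 0.05. Under the same rule edgeR's likelihood ratio test called 28 genes and DESeq2 27. The interaction was 1.84 on the log2 scale for Dusp6 (SE 0.32, FDR 0.185), 1.85 for Etv5 (SE 0.36, FDR 0.305), 3.64 for Il1b (SE 0.60, FDR 0.185) and -2.72 for Crabp2 (SE 0.45, FDR 0.185), and none of these passed. A higher or lower level with the combination is therefore not shown to be a response to cediranib that depends on trametinib.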

How the data were processed

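RNA sequencing of 12 SVR tumors, 3 per treatment, was used as deposited raw counts per gene. The authors made reads with bcl2fastq 1.8.4, aligned them with STAR 2.7.1a (2-pass, GRCm38) and summarized them by gene with featureCounts 1.6.0. Its annotation release, strandedness and treatment of multiply aligned reads were not given in the sources used here, and overlapping genes can share reads. Samples were grouped by title, and 0 columns of per-sample values were left unused. Genes passing edgeR's filterByExpr (minimum count 10, minimum total 15) were TMM scaled and entered, for all 12 libraries at once, into a quasi-likelihood fit (edgeR 4.0.16, R 4.3.3). The threshold was an FDR of 0.05 with an absolute log2 fold change of 1.5. Standard errors are the absolute log2 fold change over the square root of F. Alternatives used DESeq2 1.42.0, limma 3.58.1, other scalings, filters and covariates, including mean log2 CPM (prior count 2) of 91 epidermal and 80 muscle genes. Counts were simulated for this comparison (12617 genes, 200 of them changed). An FDR of 0.05 recovered 44%, 74%, 88% and 98% of genes changed by 1, 1.5, 2 and 3 on the log2 scale, with 4.4% of calls false. The changed genes were drawn only from those with higher counts, and the fold rule was not applied. The simulated tumors shared the same mean levels apart from these changes, without differences in tissue content. These rates therefore do not carry over to the genes called here. Strand, overlaps and gene type came from GENCODE M21, and promoters from RefSeq (GRCm38.p6). Genes named were the called genes outside the skin, muscle and fat lists with the smallest p (up to 20 a direction), called members and up to 4 leading members of each of 50 lists, and the drug targets; some of these are not reported here. The members and lists were chosen with earlier results of these data known.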

Additional observations from a re-analysis of the deposited data

Results flagged for a closer look

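For 2 of the genes described all 3 combination values lay on 1 side of all 3 trametinib values while all 3 cediranib values lay on the opposite side of all 3 vehicle values. Ccr1 was higher in the former and lower in the latter, with an interaction of 3.87 on the log2 scale (standard error 0.60, unadjusted p = 3.05e-05, FDR 0.185 by the edgeR quasi-likelihood test, Benjamini-Hochberg adjusted). Egr1 moved the same way, with an interaction of 1.57 (standard error 0.29, FDR 0.246). Neither interaction passed the adjustment.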

How the results depend on the processing

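The count of called genes was sensitive to the method and to single libraries. The direction of the calls mostly held, but the genes were selected for large folds in the same libraries, so this is not separate support. All 87 called genes kept their direction under every alternative in which they were tested, except that 84 kept it with the epidermal score and 85 with the epidermal and muscle scores. Against 87 called genes (65 outside the lists of skin, muscle and fat), there were 773 (537) without a low-count filter, 401 (269) by edgeR's likelihood ratio test, 347 (234) by DESeq2, 274 (169) in a fit of the 6 libraries compared, 21 (15) with a mean of at least 50 counts and 16 (15) by limma-voom. With the FDR alone 103 genes outside the lists were counted. No gene was called with the epidermal score (699 at an unadjusted p under 0.05) or with the muscle score (1726, smallest FDR 0.0515), and 1 was called with both, Ivl, which leaves 0 outside the lists. Leaving out 1 library gave 0 to 21 genes in all and 0 to 16 outside the lists. With the replicate number as a block 57 genes were called, 48 of them also without it. Same-numbered tumors did not deviate together (correlations -0.08, -0.11 and -0.05), so the numbers were not treated as pairs. For the interaction the count was 261 without a filter, 28 by the likelihood ratio test and 27 by DESeq2 against 0. The cause of these differences was not tested. With the epidermal score, and with both scores, the log2 fold change reversed to 0.50 and 0.62 for Pdgfrb, 0.08 and 0.30 for Col1a1, 0.28 and 0.17 for Pdgfra, 1.15 and 0.55 for Flt4, 0.37 and 0.34 for Mapk3, 0.02 and 0.03 for Map2k2, 0.19 and 0.12 for Map2k1, 1.65 and 1.57 for Kdr and 0.11 and 0.42 for Csf1r. It was -0.45 for Hdc with both scores. As single libraries were left out Map2k2 ran from -0.23 to 0.01 (without trametinib replicate 3) and Kdr from -0.56 to 0.08 (without trametinib replicate 2). Map2k1 was 0.00 with library totals, which moved the median of all genes to 0.12. At these depths a gene under about 0.251 to 0.349 CPM cannot be told from 0 in a library.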
